A study of Mus musculus with 2 samples.

Results

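The genes described here are the D cyclins Ccnd1, Ccnd2 and Ccnd3, their kinases Cdk4 and Cdk6, the CDK inhibitors Cdkn1a, Cdkn1b, Cdkn1c and Cdkn2c, and Rb1, the retinoblastoma gene. They were taken by symbol, are 10 of the 32285 genes listed in each library, and all 10 had UMIs in both libraries. Single-cell RNA sequencing was performed on epithelial cells of mouse back skin at postnatal day 1, sorted for tdTomato after the epidermis had been removed so that growing hair follicles in the dermal fraction were enriched. One library was labelled PADI4 WT (K14-Cre with the tdTomato reporter) and one PADI4 cKO (K14-Cre with the reporter and Padi4 fl/fl). The methods of the study do not say whether the libraries were prepared together. K14-Cre acts in all keratin 14-expressing epithelium, so in the PADI4 cKO animals the deletion is not limited to the hair follicle. The number and sex of the animals behind each library were not given in the sources used here.

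D cyclins bind and activate CDK4 and CDK6, which phosphorylate the retinoblastoma protein and so release E2F factors that drive entry into S phase. Inhibitors of the Cip/Kip family (Cdkn1a, Cdkn1b and Cdkn1c) bind cyclin-CDK complexes, whereas the INK4 protein encoded by Cdkn2c binds CDK4 and CDK6 themselves. In the growing hair follicle, matrix cells at the base of the bulb divide rapidly and then leave the cell cycle as they become inner root sheath, cortex or medulla. The comparisons below ask which of these genes differ between the steps of that path, and whether they differ between the libraries.

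The library labelled PADI4 WT held 8071 cells after filtering, with a median of 14670 UMIs, and the library labelled PADI4 cKO held 7392 cells, with a median of 16208 UMIs. With 1 library per genotype no test between conditions is possible. Intervals in the text are 95% intervals for the counting of UMIs or cells, and differences between animals or preparations are not in them. Padi4 itself did not separate the libraries, with 98 and 92 UMIs over all epithelial cells (log2 ratio −0.12, interval −0.54 to 0.31). A 3′ UMI does not show whether the floxed exons are gone, so the second library is called by its label throughout. Of the epithelial cells, 26.0% in the PADI4 WT library held Xist and no Y-linked UMIs and 62.4% the reverse, against 98.3% and 0% in the other library, so the libraries also differ in the sex of their animals. Free RNA made up at most 7.84% and 6.73% of the UMIs in epithelial cells, and 17 cell barcodes of at least 2000 UMIs occurred in both libraries, out of 8785 and 7882. Levels are given as UMIs per 1000000 UMIs of a cell group (CPM), PADI4 WT first and PADI4 cKO second.

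Cells were grouped by clustering without the members and without the genes used for phase calls. The path used here runs from lower proximal cup cells (LPC-like, 1473 and 1876 cells), through the germinative layer of the matrix (GL-like, 1549 and 1551 cells), to inner root sheath (IRS-like, 723 and 559 cells), cortex (Cx-like, 280 and 219 cells) and cluster 11 (416 and 311 cells). Cluster 11 expressed Krtap8-1 and Mt4 and all 5 medulla markers, but tied with the germinative layer in its markers and was left unnamed. The order of these groups is the one the names imply and was not measured. Most GL-like cells were called in S or G2M phase (96.1% and 97.1%), followed by IRS-like (82.7% and 85.0%), LPC-like (79.0% and 73.0%), cluster 11 (57.0% and 59.8%) and Cx-like cells (35% and 36.5%). Outer root sheath cells (ORS-like, 629 and 598 cells) were the quietest large group, with 13.7% and 16.9%. The proliferation marker Mki67 was highest in GL-like cells, at 789.8 and 719 CPM, and held 692 and 631 CPM in IRS-like cells, 274 and 198 CPM in Cx-like cells and 120.3 and 64.3 CPM in ORS-like cells.

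Before the levels, the stretches upstream of the start sites are shown for the member with the widest differences between phase calls, Cdkn2c, beside Lockd, the gene whose pattern over cell groups was most like it, and Mki67. Each is the 250 bases before a RefSeq start on GRCm38.p6, written 5′ to 3′ in the direction of transcription. Capitals mark the letters of a cell cycle homology region (CHR, TTTGAA or TTCGAA) or a CCAAT box, on either strand, both of which are frequent in promoters of genes active in G2 and mitosis. The Cdkn2c windows lie at chr4:109666757-109667006 and chr4:109665373-109665622 on the minus strand, that of Lockd at chr6:134928842-134929091 on the plus strand, and that of Mki67 at chr7:135716380-135716629 on the minus strand.
Cdkn2c, upstream start: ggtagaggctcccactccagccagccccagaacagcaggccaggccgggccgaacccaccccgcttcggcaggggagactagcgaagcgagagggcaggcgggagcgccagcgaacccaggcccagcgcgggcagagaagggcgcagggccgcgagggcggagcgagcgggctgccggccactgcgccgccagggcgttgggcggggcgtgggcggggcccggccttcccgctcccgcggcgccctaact
Cdkn2c, downstream start: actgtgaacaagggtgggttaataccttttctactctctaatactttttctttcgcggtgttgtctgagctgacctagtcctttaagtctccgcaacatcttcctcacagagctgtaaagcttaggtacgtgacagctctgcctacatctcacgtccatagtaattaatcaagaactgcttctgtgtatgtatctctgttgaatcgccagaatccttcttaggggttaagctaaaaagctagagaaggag
Lockd: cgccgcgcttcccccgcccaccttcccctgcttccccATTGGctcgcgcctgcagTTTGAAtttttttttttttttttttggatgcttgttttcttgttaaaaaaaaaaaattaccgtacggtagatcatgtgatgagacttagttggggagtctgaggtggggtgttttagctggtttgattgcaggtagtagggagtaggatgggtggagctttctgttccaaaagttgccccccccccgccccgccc
Mki67: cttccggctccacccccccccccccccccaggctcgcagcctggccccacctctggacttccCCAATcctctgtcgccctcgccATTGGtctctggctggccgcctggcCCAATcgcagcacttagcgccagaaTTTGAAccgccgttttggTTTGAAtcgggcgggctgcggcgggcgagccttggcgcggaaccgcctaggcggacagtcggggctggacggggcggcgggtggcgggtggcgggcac
Neither Cdkn2c window held a capital, while that of Lockd held 1 CHR and 1 CCAAT and that of Mki67 held 2 CHR and 3 CCAAT. Of the other genes most like Cdkn2c, the window of Nusap1 held 0 of either, as those of Cdkn2c did, and that of Ckap2l held 1 CHR and 3 CCAAT. RefSeq windows were found for 6 of the 10 members (Ccnd3, Cdk4, Cdk6, Cdkn1a, Cdkn1b and Cdkn2c), 9 windows in all. None of the 9 held a CHR, which 17.1% of all 32851 windows hold, and none held 1 of the 4 E2F octamers TTTCCCGC, TTTGGCGC, TTTCGCGC and TTTGCCGC, which 1.86% hold. A CCAAT occurred in 2 of the 9, those of Cdkn1b and the downstream start of Ccnd3, and in 33.8% of all windows. These are descriptions of letters in short windows and not of binding.

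Among the D cyclins, Ccnd2 was highest in the matrix, Ccnd1 was highest in cells outside it, and Ccnd3 was low there and highest in the outer root sheath. Ccnd2 (chr6:127125162-127152193, minus strand of GRCm38) was highest in GL-like cells, at 2587 and 2599.8 CPM, and cluster 11 came next at 2031 and 2263 CPM. IRS-like cells held 1339 and 1165 CPM, Cx-like cells 1032 and 912 CPM, and LPC-like cells 775 and 809 CPM. The sebaceous gland-like cells (SG-like) were lowest at 244 and 193 CPM, so that the groups spanned 10.6-fold and 13.5-fold. In neither library did the intervals of the first 6 groups in this order overlap, and cluster 6, which expressed Aldh3a1 and Pparg, stood among them at 1231 and 1254 CPM.

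Ccnd1 (chr7:144929931-144939925, minus strand) was highest in cluster 17, which expressed the companion layer keratin Krt75, at 1126 and 1117 CPM. Cluster 1, marked by Hhip and Sfrp1, held 738 and 875 CPM, and LPC-like cells held 667 and 737 CPM. GL-like cells held 434 and 413 CPM, below IRS-like cells at 619 and 632 CPM and above Cx-like cells at 306 and 299 CPM. Ccnd3 (chr17:47505051-47599691, plus strand) was highest in ORS-like cells, at 156 and 157 CPM, and next to lowest in GL-like cells, at 38.0 and 39.7 CPM, where its interval overlapped that of the SG-like cells at 24.7 and 38.0 CPM. Of the transcript ends of Ccnd3 read by the assay, 7.66% of the 31-base stretches also occur in other genes, so a small part of its count is less certain.

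Counted UMIs of the 3 cyclins are not calibrated against each other, but their shares can be followed from group to group. Ccnd2 made up 50.9% and 49.6% of the D cyclin UMIs of LPC-like cells (intervals 50.4% to 51.3% and 49.18% to 49.98%), 84.6% and 85.2% in GL-like cells and 83.4% and 86.4% in cluster 11. Its share was 66.2% and 62.7% in IRS-like cells and 72.8% and 70.8% in Cx-like cells. The Ccnd3 share was 18.7% and 18.2% in ORS-like cells against 1.24% and 1.30% in GL-like cells. Cluster 1 and cluster 17 were the groups where Ccnd1 held the largest share, 64.6% and 66.8% and 62.5% and 74.5%.

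**Figure D1:**
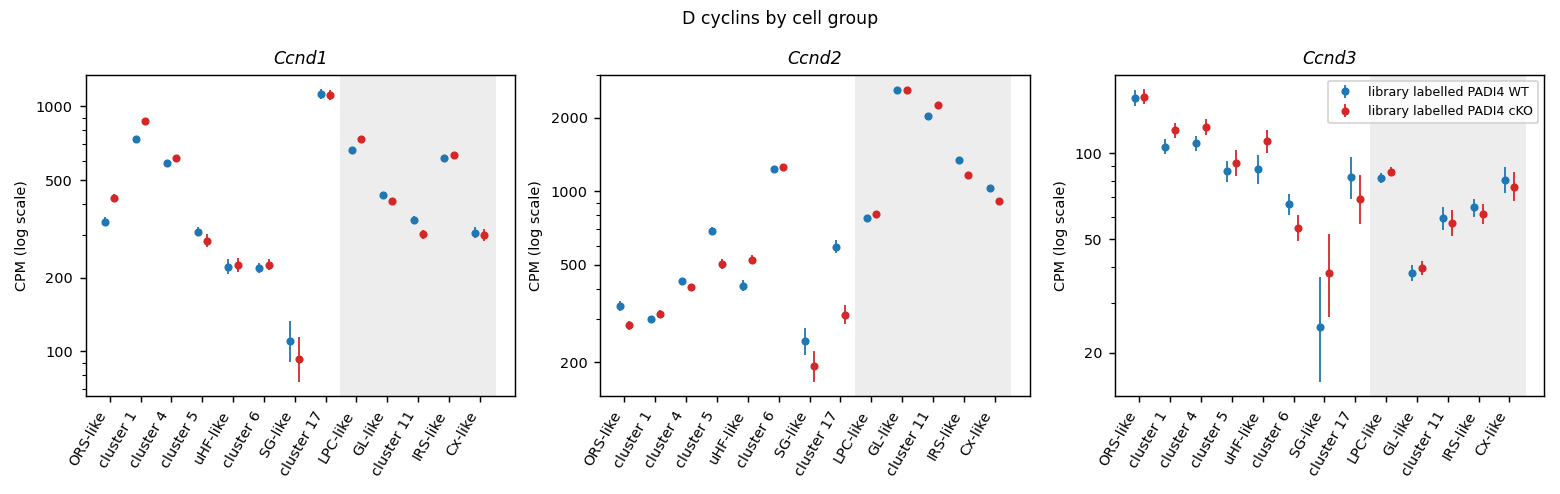
Level of each D cyclin in 13 cell groups, in CPM on a log scale, with 95% Poisson intervals; blue points are the library labelled PADI4 WT and red points the library labelled PADI4 cKO, and the grey band marks LPC-like, GL-like, cluster 11, IRS-like and Cx-like cells. Ccnd2 peaks in GL-like cells at 2587 and 2599.8 CPM, where Ccnd3 is at 38.0 and 39.7 CPM.

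The kinases differed from each other. Cdk4 (chr10:127063534-127067920, plus strand) was highest in GL-like cells, at 417 and 419 CPM, and varied little, with its lowest group 2.34-fold and 2.26-fold below. Cdk6 (chr5:3341485-3531008, plus strand) was high in cluster 4, an epithelial cluster with Tagln and Acta2, at 239 and 280.0 CPM, and in cluster 1 at 205 and 262 CPM. LPC-like cells held 187 and 219 CPM of Cdk6 and GL-like cells 167 and 162 CPM. Cluster 11 held 90.7 and 83.2 CPM, IRS-like cells 47.9 and 52.3 CPM, and Cx-like cells 26.2 and 35.0 CPM, with no overlap between the intervals of the last 2 groups in either library. Both kinases share some transcript-end sequence with other genes, 3.85% of 31-base stretches for Cdk4 and 5.69% for Cdk6.

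Of the inhibitors, Cdkn1a, which encodes p21 and is known as a target of p53, spanned the widest range of all 10 genes, 49.96-fold and 58.95-fold between groups. It lies at chr17:29090976-29100727 on the plus strand. Cx-like cells held most, 479 and 366 CPM, followed, in the order of the PADI4 WT library, by SG-like cells at 370.0 and 261 CPM, cluster 17 at 253 and 199 CPM, cluster 11 at 246 and 260.1 CPM, and IRS-like cells at 223 and 174 CPM. GL-like cells held 31.3 and 32.3 CPM, LPC-like cells 15.0 and 10.5 CPM, ORS-like cells 14.7 and 10.3 CPM, and cluster 1 was lowest at 9.59 and 6.20 CPM. Cdkn1a was thus high in each of the differentiated groups and low both in the cycling matrix and in the quiet outer root sheath. Droplets under 100 UMIs held 66.4 and 55.0 CPM of Cdkn1a, so free RNA may make up more of its UMIs in the low groups than in the high ones.

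Cdkn1b, which encodes p27, lies at chr6:134920401-134925513 on the plus strand and varied little. It was highest in ORS-like cells, at 123 and 93.1 CPM, held 82.3 and 77.2 CPM in GL-like cells and 62.1 and 53.4 CPM in Cx-like cells, and was lowest in SG-like cells at 42.3 and 25.6 CPM. Most neighbouring groups had overlapping intervals. Cdkn1c, which encodes p57 (chr7:143458339-143461050, minus strand), was low in the 13 compared groups and highest among them in ORS-like cells, at 26.4 and 21.8 CPM. Free RNA could account for at most 14.1% and 8.35% of its epithelial UMIs, against at most 8.66% for any other member in the PADI4 WT library. These are shares over all epithelial cells, and the part can be larger in a group where a member is low. Cdkn2c, the INK4 inhibitor p18 (chr4:109660876-109667189, minus strand), held 34.4 and 36.2 CPM in GL-like cells, 34.5 and 35.5 CPM in IRS-like cells and 26.4 and 20.4 CPM in LPC-like cells. It was low in Cx-like cells (14.0 and 12.6 CPM), ORS-like cells (12.2 and 8.32 CPM) and SG-like cells (8.24 and 4.10 CPM). Its order over groups did not follow the phase shares throughout, since cluster 4, with 52.2% and 57.7% of cells called S or G2M, held 17.9 and 16.8 CPM.

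Rb1 (chr14:73183673-73325822, minus strand) was highest in the differentiated groups, at 172 and 207 CPM in cluster 11, 167 and 170.2 CPM in IRS-like cells and 164 and 172 CPM in Cx-like cells. ORS-like cells held 141 and 133 CPM, GL-like cells 84.2 and 90.4 CPM, and LPC-like cells 62.6 and 69.1 CPM. In the PADI4 WT library the intervals of the first 3 groups overlapped one another, and all 3 lay above those of the GL-like cells. The annotation places Gm17233 and Mir687 on the same strand within Rb1, so reads of these cannot be told apart from it where they overlap.

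**Figure D2:**
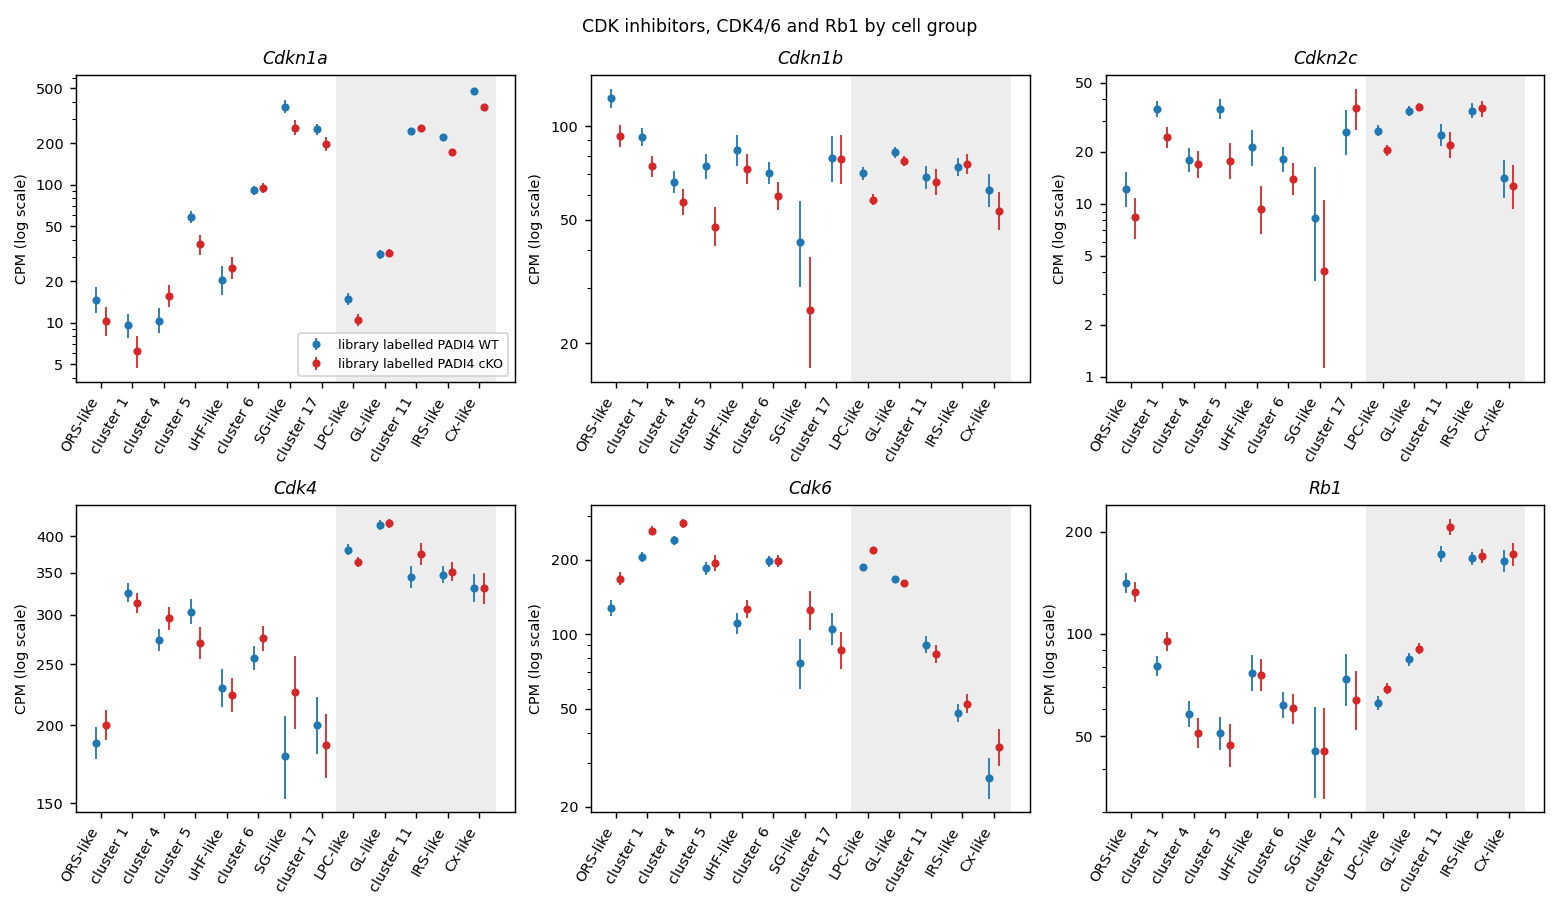
Levels of Cdkn1a, Cdkn1b, Cdkn2c, Cdk4, Cdk6 and Rb1 in the same 13 groups, in CPM on a log scale, with 95% Poisson intervals, coloured by library. From GL-like to Cx-like cells Cdkn1a goes from 31.3 to 479 CPM and Cdk6 from 167 to 26.2 CPM in the PADI4 WT library.

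On entry to the matrix, from LPC-like to GL-like cells, Ccnd2 and Cdkn1a were higher and Ccnd3 was lower by more than 2-fold in both libraries. Ccnd2 was higher by 1.74 and 1.68 on the log2 scale (intervals 1.72 to 1.76 and 1.66 to 1.70). Ccnd3 went from 81.9 and 86.0 CPM to 38.0 and 39.7 CPM, log2 ratios of −1.11 and −1.12. Cdkn1a, still low in GL-like cells, was higher by 1.06 and 1.62 (intervals 0.89 to 1.24 and 1.45 to 1.80). A difference was counted where the log2 ratio passed 1 in the same direction in both libraries, for genes of at least 100 UMIs in the compared groups of each library. Of the 10 members, 2 were higher and 1 lower by this rule, where 1.61% of all 11753 genes were higher and 8.76% lower. The median log2 ratio of the members was 0.23 and 0.40, against −0.03 and −0.03 over all genes. Ccnd1 was lower in GL-like cells by less than 2-fold, with ratios of −0.62 and −0.84, and Cdk4 differed by 0.13 and 0.20. Within cells called S or G2M the Ccnd3 ratios were −1.05 and −0.99, so Ccnd3 no longer passed in both libraries. It also did not pass at a Leiden resolution of 0.5 or 2.0, or with no regression of phase scores.

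The LPC-like class was not uniform. Its cluster 8, led by Sp5 and Frem1, held 1349.6 and 1346 CPM of Ccnd2, against 448 and 385 CPM in cluster 0 and 559.6 and 664 CPM in cluster 14. The GL-like class joined cluster 2 (Myb, Gfra3, Kit) and cluster 12 (Dcn, Shh, Cldn10), and Cdkn1a was 18.5 and 14.8 CPM in the first and 45.7 and 49.4 CPM in the second. With cluster 2 alone as the matrix, the Cdkn1a ratios over LPC-like cells were 0.30 and 0.50, so Cdkn1a no longer passed 2-fold. Ccnd2 differed less between them, at 2338 and 2425 CPM in cluster 2 and 2865 and 2769 CPM in cluster 12.

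From GL-like to Cx-like cells, Cdkn1a was 15.3-fold and 11.3-fold higher, with log2 ratios of 3.93 (3.82 to 4.05) and 3.499 (3.38 to 3.62). Lower were Cdk6, by 6.36-fold and 4.599-fold (log2 −2.67 and −2.20), Ccnd2, by 2.51-fold and 2.85-fold (−1.33 and −1.51), and Cdkn2c, by 2.44-fold and 2.84-fold (−1.286 and −1.505). Thus 1 of the 10 members was higher and 3 were lower by the same rule, where 5.4% of all 10575 genes were higher and 6.11% lower. Ccnd3 (1.08 and 0.95) and Rb1 (0.96 and 0.93) were just under the rule, and Cdk4 differed by −0.33 and −0.34. The median of the members was −0.37 and −0.50, and that of all genes −0.05 and −0.03.

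From GL-like to IRS-like cells, Cdkn1a was 7.13-fold and 5.39-fold higher (log2 2.83, 2.72 to 2.95, and 2.43, 2.32 to 2.54), and Cdk6 was 3.49-fold and 3.09-fold lower (log2 −1.80 and −1.63). These were 1 member higher and 1 lower of 10, where 4.72% of all 10879 genes were higher and 3.86% lower. Just outside the rule were Rb1, at 0.99 and 0.91, and Ccnd2, at −0.95 and −1.16. Cdkn2c did not differ beyond its intervals, with ratios of 0.00 (−0.17 to 0.17) and −0.03 (−0.20 to 0.15), and Cdkn1b differed by −0.15 and −0.03. The median of the members was −0.06 and −0.03, and that of all genes −0.02 and −0.02. Most of the IRS-like class was cluster 3, and its other 21 cells formed cluster 10, in which no cell was called in S or G2M. These cells held 655 and 793 CPM of Cdkn1a, 149.5 and 182 CPM of Ccnd2, and 0 UMIs of Cdk6, which allows up to 19.0 and 30.5 CPM.

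From GL-like cells to cluster 11, Cdkn1a was higher by 2.97 and 3.01 on the log2 scale and Rb1 by 1.03 and 1.19. These 2 of 10 members were higher and 0 lower, where 4.64% of all 10736 genes were higher and 1.76% lower. Ccnd2 differed by only −0.35 and −0.20 and Cdk6 by −0.88 and −0.96. The medians of the members were −0.27 and −0.21, against 0.00 and 0.00 over all genes. Cdkn1a was the member past 2-fold, in the same direction, in all 3 differentiated groups. Since the 3 comparisons share the GL-like cells, a part of these differences is common to them by design.

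**Figure D3:**
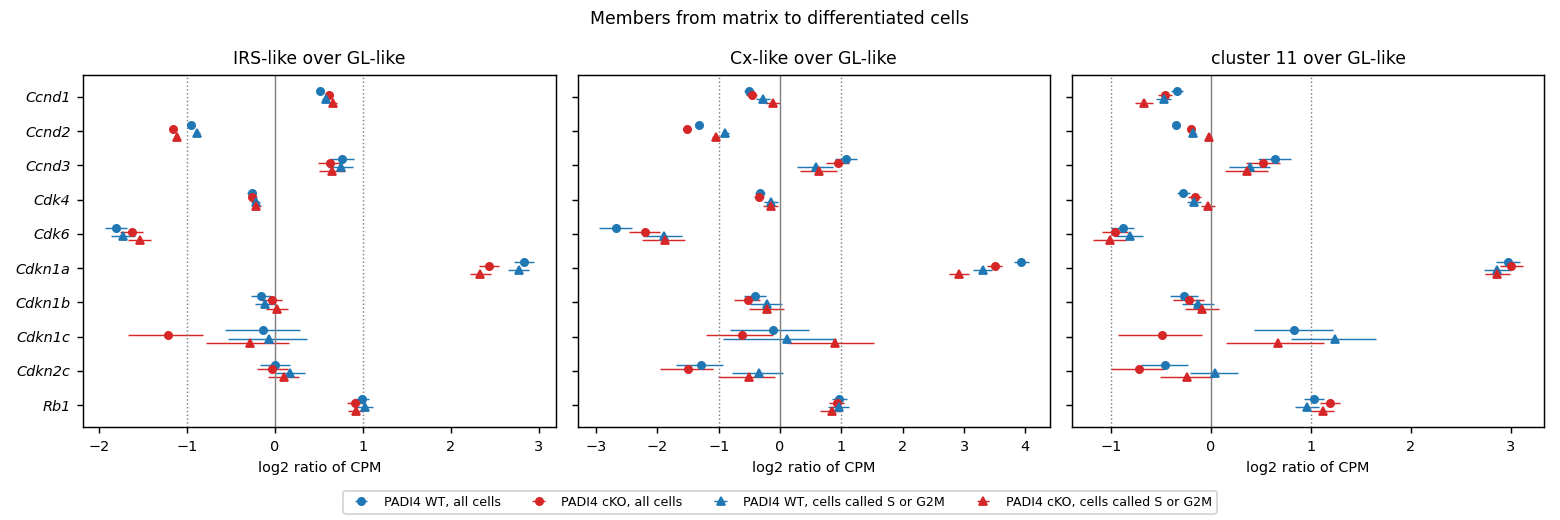
Log2 ratio of the level of each member in IRS-like, Cx-like and cluster 11 cells over GL-like cells, with 95% intervals for counting; circles use all cells, triangles the cells called S or G2M, and dotted lines mark a log2 ratio of 1 in either direction. Cdkn1a lies to the right of the dotted line in each panel, and its ratio in cycling Cx-like cells is 3.30 and 2.92.

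The groups differ in how many of their cells were called in S or G2M, so the ratios were also taken within such cells. Among them, Cdkn1a was 30.9 and 31.8 CPM in GL-like and 304 and 240.4 CPM in Cx-like cells, log2 ratios of 3.30 and 2.92. In IRS-like cells the ratios were 2.77 and 2.34, and in cluster 11 they were 2.86 and 2.87. Rb1 in cluster 11 was at 0.97 and 1.12 within such cells and no longer passed in both libraries. Nor did it pass at a Leiden resolution of 2.0, with no regression of phase scores, with cells thinned to 2000 UMIs, or with cluster 12 alone as the matrix. Cdk6 was lower in cycling Cx-like cells by −1.90 and −1.88 and in cycling IRS-like cells by −1.72 and −1.54. Ccnd2 and Cdkn2c in Cx-like cells came nearer to 0, at −0.89 and −1.04 and at −0.34 and −0.51, and no longer passed in both libraries. Within cells called G1, of which the GL-like class held 61 and 45, the ratios to Cx-like cells were 3.67 and 2.93 for Cdkn1a, −3.68 and −2.47 for Cdk6 and −1.48 and −1.60 for Ccnd2. Cdkn1a and Cdk6 were thus past 2-fold in both kinds of cells, and Ccnd2 in both libraries among G1 cells but in 1 library among S or G2M cells.

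Cells were thinned to 2000 UMIs each to count those with both Ccnd2 and Cdkn1a at equal depth, which left out no cell. Both were detected in 2.04% and 1.33% of LPC-like cells and in 6.004% and 6.254% of GL-like cells. The shares were 22.1% and 17.9% in IRS-like cells, 27.2% and 30.9% in cluster 11 and 31.8% and 28.8% in Cx-like cells. Without thinning the shares were 13.8% and 10.7% in LPC-like, 24.9% and 29.2% in GL-like, 73.3% and 73.7% in IRS-like, 83.7% and 89.7% in cluster 11 and 86.4% and 85.8% in Cx-like cells. Ccnd2 and Cdkn1a UMIs were therefore counted under the same cell barcodes in the differentiated groups. Free RNA and doublets can add to these shares, which were not recomputed without them. Droplets under 100 UMIs held 825 and 851 CPM of Ccnd2, so the shares without thinning are the more exposed. These shares depend on how many cells held each gene, so the low LPC-like share is not a baseline for groups with more Cdkn1a. Whether the 2 genes met more often than their separate levels give was not tested.

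To order the cells inside a group, Cx-like and IRS-like cells were split into 5 bins of nearly equal cell number. The bins follow the share of their UMIs in the keratin genes of their own marker list. Whether this share follows differentiation was not measured. For IRS-like cells Tchh, which encodes trichohyalin, was counted with these keratins. The genes of the share were left out of the CPM. From the lowest to the highest bin of Cx-like cells, Ccnd2 went from 1862 to 478 CPM in PADI4 WT and from 1920.4 to 291 CPM in PADI4 cKO. Cdkn1a went from 279 to 722 CPM and from 253 to 546 CPM. Cdk6, at 42.6 CPM in the lowest bin of the PADI4 WT library, was at 9.39 CPM in the highest, and in the PADI4 cKO library it was at 33.0 CPM in the lowest, 52.2 CPM in the middle and 14.9 CPM in the highest bin. The share of cells called S or G2M went from 76.8% to 10.7% and from 70.5% to 4.65%. In IRS-like cells, Ccnd2 went from 1459.5 to 532 CPM and from 1465 to 523 CPM, and Cdkn1a from 159 to 372 CPM and from 125 to 311 CPM. Rb1 went from 90.1 to 230.5 CPM and from 107 to 229 CPM in IRS-like cells. IRS-like cells were called in S or G2M at 73.1% and 83.0% in the lowest bin, more in the middle ones, and 61.8% and 64.0% in the highest. From the lowest to the highest bin, Mki67 went from 510 to 760 CPM and from 500 to 704 CPM in IRS-like cells. In Cx-like cells it went from 470 to 71.6 CPM and from 341 to 25.3 CPM. Each bin of Cx-like cells held 43 to 56 cells, so single steps between bins are less certain than the ends.

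**Figure D4:**
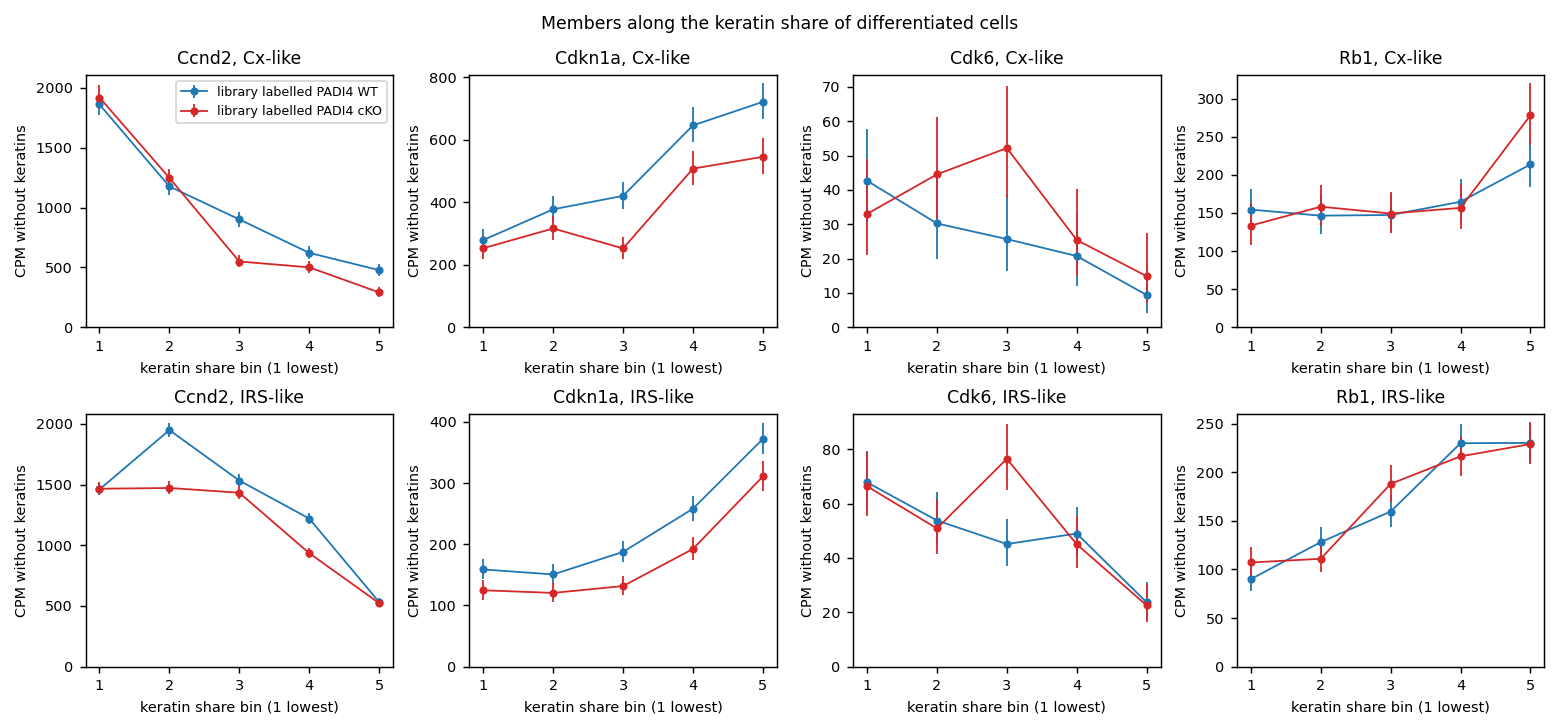
Levels of Ccnd2, Cdkn1a, Cdk6 and Rb1 in 5 bins of Cx-like (top) and IRS-like (bottom) cells ordered by their keratin UMI share (with Tchh for IRS-like cells), in CPM without the genes of that share, with 95% Poisson intervals and one line per library. In Cx-like cells of the PADI4 WT library Ccnd2 goes from 1862 to 478 CPM and Cdkn1a from 279 to 722 CPM.

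Within a group, cells called S or G2M were set beside cells called G1 in 21 pairs of group and library with enough of both. Cdkn2c, although an inhibitor of CDK4 and CDK6, was higher in the S or G2M cells in 21 of 21 pairs, by 2.04 to 4.92 on the log2 scale. In LPC-like cells it was 2.96 and 2.66 CPM in G1 and 30.5 and 24.4 CPM in S or G2M, and in ORS-like cells 2.84 and 2.88 CPM against 42.2 and 23.3 CPM. Cdk4 was also higher in 21 of 21, by 0.25 to 1.05. Ccnd3 went the other way, lower in S or G2M in 15 of 21 pairs and higher in 0, with ratios of −0.78 to 0.00. Ccnd1 was higher in S or G2M in 18 pairs and lower in 2, both of them in cluster 11, at −0.36 and −0.55. Ccnd2 was higher in 17 and lower in 2, with the widest gap in ORS-like cells, 184 and 181 CPM in G1 against 843 and 566 CPM. Cdkn1a was lower in S or G2M in 12 pairs and higher in 3, and in Cx-like cells it was 608 and 462 CPM in G1 against 304 and 240.4 CPM. Higher and lower here count pairs whose interval did not include 0. Phase calls rest on scores, and 12 and 14 Cx-like cells lay within 0.05 of a cut.

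Between S and G2M calls, in GL-like cells, Cdkn1b was 57.7 and 57.4 CPM in S and 96.4 and 88.8 CPM in G2M, log2 ratios of 0.74 and 0.63. In LPC-like cells the same ratios were 0.73 and 0.80. Cdkn2c was higher in G2M by 0.88 and 0.92 in GL-like and 1.27 and 1.20 in LPC-like cells. Ccnd3 was lower in G2M, by −0.54 and −0.71 in GL-like cells and −0.36 and −0.62 in LPC-like cells, and Ccnd1 was lower by −0.13 and −0.16 and by −0.22 and −0.32. Rb1 was lower in G2M in both groups, with the interval reaching 0 in the LPC-like cells of the PADI4 cKO library (−0.12, −0.25 to 0.01).

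The other genes of the G1 to S step were 30 listed genes, counted by the same rule. From LPC-like to GL-like cells, 2 of 28 tested were higher and 0 lower, beside 1.61% and 8.76% of all genes. The higher ones were E2f2, an activating E2F factor, at 1.20 and 1.25, and Myc, at 1.02 and 1.06. From GL-like to IRS-like cells, 2 of 29 were higher and 1 lower, beside 4.72% and 3.86% of all genes. E2f2 went from 38.2 and 42.2 CPM to 126 and 115 CPM (1.73 and 1.45), and the INK4 inhibitor Cdkn2b from 9 and 11 UMIs to 95 and 100 UMIs (4.52 and 4.81). Mycn went from 87.4 and 78.0 CPM to 29.3 and 24.8 CPM (−1.58 and −1.65). From GL-like to Cx-like cells, 1 of 28 was higher, E2f2 at 1.44 and 1.23, and 4 were lower, beside 5.4% and 6.11% of all genes. The lower ones were the S and G2 phase cyclin Ccna2 (−1.46 and −1.60), the repressor E2f8 (−1.01 and −1.17), the pocket protein gene Rbl1 (−1.28 and −1.32), and the APC/C inhibitor Fbxo5 (−1.16 and −1.41). Cdkn2b was under the UMI minimum for this step and is not counted, but held 110 and 84 UMIs, 24.8 and 22.1 CPM, in Cx-like cells. To cluster 11, 0 of 28 were past the rule. E2f2 was the 1 gene of the list that passed upward in 3 of the 4 steps.

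Over the 13 groups, the gene most like Cdkn2c was Lockd (r = 0.98 in each library, as log2 CPM), followed by Ckap2l and Nusap1. Lockd is a noncoding RNA gene beside Cdkn1b and on the same strand (chr6:134929092-134956798), starting 3579 bases after the end of Cdkn1b. Closest to Cdk4 were A630089N07Rik, the replication clamp gene Pcna and Dctpp1. Closest to Cdkn1a were Crybg2 (0.96 and 0.96), Hip1r and Esrp2, closest to Ccnd2 were Pkp4, Maco1 and Frmd6, and among the closest to Ccnd1 were Tspan13 and Tagln2. For Rb1 they included Nudt16 and Daam1, and they were for Cdk6 Adk, St6gal1 and Tbc1d1, and for Ccnd3 Timp2, Cdc42bpa and Rac3. Cdkn1b and Cdkn1c had weaker matches, Ints12, Arhgap12 and 2610002M06Rik for the first and Mpst, Tbc1d32 and Rfx3 for the second, at 0.79 to 0.88. The points of these correlations share their libraries and depth, and the genes named are among the 3 nearest of 11093.

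Between the libraries, the main path gave few differences in the members. In GL-like cells Ccnd2 was 2587 and 2599.8 CPM (log2 ratio 0.01, −0.01 to 0.02), Cdkn1a 31.3 and 32.3 CPM (0.05, −0.09 to 0.18) and Cdk4 417 and 419 CPM. A difference was counted past 0.5 on the log2 scale, for genes of at least 100 UMIs in the group. In GL-like cells 1 of 10 members passed, where 2.68% of all genes did, in IRS-like cells 0 of 10 (2.76% of all genes), in Cx-like cells 0 of 9 (3.86%), in cluster 11 0 of 10 (4.09%) and in LPC-like cells 1 of 10 (3.93%). Among the other groups, 2 of 10 passed in ORS-like cells (4.76%), 2 of 5 in SG-like cells (8.55%), 2 of 10 in cluster 1 (4.19%), 1 of 9 in cluster 17 (8.15%), 1 of 10 in cluster 4 (3.46%), 3 of 10 in cluster 5 (10.3%), 0 of 10 in cluster 6 (6.15%) and 1 of 9 in uHF-like cells (7.09%), the upper hair follicle group.

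The 1 member that passed in GL-like cells was Cdkn1c, and it rested on a single droplet. It had 165 UMIs in the PADI4 WT and 404 in the PADI4 cKO library (6.24 and 12.7 CPM, log2 1.02, 0.76 to 1.29), but 192 of the 404 came from 1 droplet of 9774 UMIs. That droplet held 43 UMIs of Myog, 6 of Myod1 and 69 of Actc1, genes of skeletal muscle, of which the other 3099 GL-like cells held 0, and 1 UMI of Krt5 and 0 of Krt14. Without it the levels were 6.24 and 6.66 CPM and the ratio 0.09 (−0.21 to 0.40). The ratio of Cdkn1c from LPC-like to GL-like cells in that library, 1.45, includes the same droplet, and was 0.23 in the PADI4 WT library. In no other value of at least 100 UMIs did 1 cell hold more than 31.2%, the share of Ccnd2 in SG-like cells of the PADI4 WT library.

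Cdkn1a was past 0.5 in 6 groups. It was lower in the library labelled PADI4 cKO in LPC-like cells (15.0 and 10.5 CPM, −0.51, −0.72 to −0.31), ORS-like cells (−0.51, −0.99 to −0.04), SG-like cells (370.0 and 261 CPM, −0.50, −0.74 to −0.27), cluster 1 (−0.62, −1.13 to −0.14) and cluster 5 (58.6 and 37.0 CPM, −0.66, −0.95 to −0.38). It was higher in cluster 4 (10.4 and 15.8 CPM, 0.60, 0.20 to 1.01), where 2 cells held 12 each of the 116 UMIs of the PADI4 cKO library. That ratio was 0.35 with doublets left out, 0.32 at a Leiden resolution of 2.0 and 0.09 with no regression of phase scores, none of them past 0.5. With doublets left out, the ratios were also under 0.5 in size in ORS-like cells (−0.34) and cluster 1 (−0.34). With free RNA subtracted, Cdkn1a in cluster 1 was no longer counted. In the differentiated groups it was −0.39 (−0.49 to −0.29) in Cx-like cells, −0.36 (−0.45 to −0.27) in IRS-like cells and 0.08 (−0.02 to 0.18) in cluster 11. Over the 13 groups its interval lay below 0 in 8 and above 0 in 1.

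The sex of the cells moved with Cdkn1a. In the PADI4 WT library, LPC-like cells with Y-linked UMIs held 15.0 CPM of Cdkn1a and those with Xist alone 8.77 CPM (log2 0.76, 0.37 to 1.19), and the interval lay above 0 in 4 of 7 groups with at least 100 UMIs. When both libraries were limited to cells with Xist and no Y-linked UMIs, the ratio between libraries in LPC-like cells was 0.24 (−0.14 to 0.65), on 64 and 375 UMIs. In such cells it was −0.28 (−0.43 to −0.13) in Cx-like cells, −0.26 (−0.39 to −0.12) in IRS-like cells and −0.16 (−0.69 to 0.45) in cluster 5. In cluster 4 it was 1.60 (0.82 to 2.60), on 13 and 116 UMIs. Ccnd1 moved with sex in the other direction, being lower in cells with Y-linked UMIs in 10 of 11 groups, each with an interval below 0, by −0.59 at most in ORS-like cells (441 and 293 CPM). Cells of different sex come from different animals, so sex and animal cannot be told apart here.

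**Figure D5:**
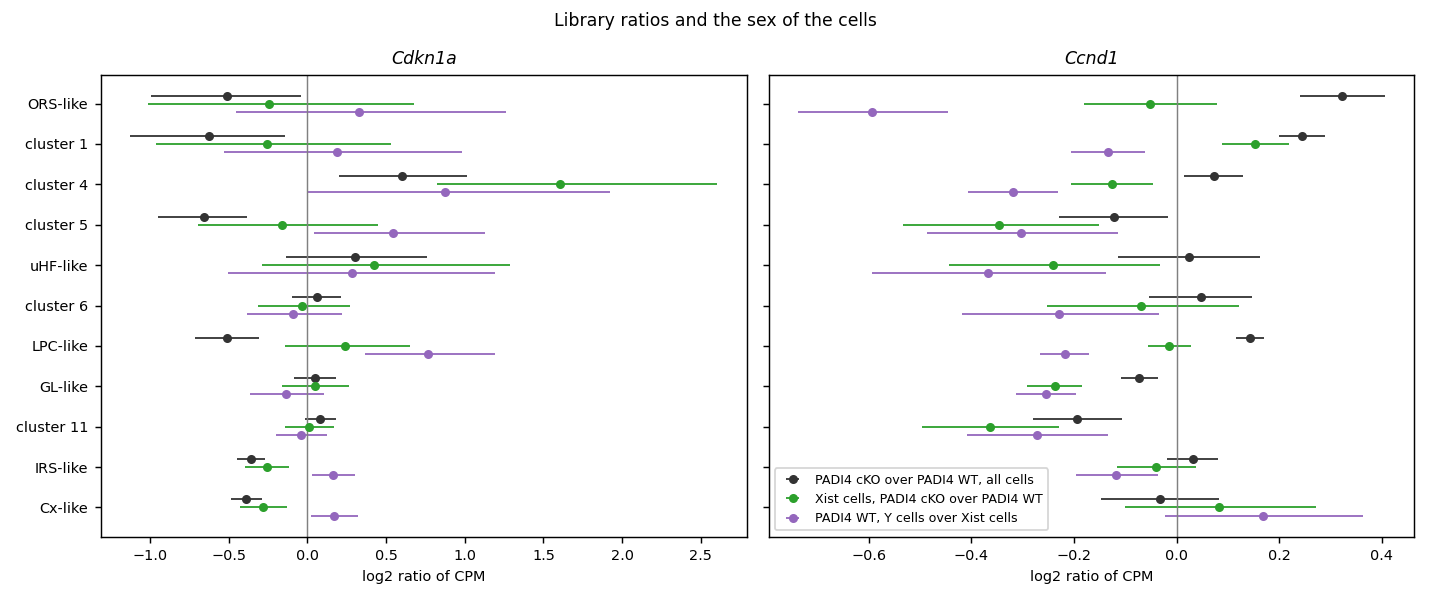
Log2 ratios of Cdkn1a (left) and Ccnd1 (right) per cell group with 95% intervals for counting: between the libraries over all cells (black), between the libraries in cells with Xist and no Y-linked UMIs (green), and within the PADI4 WT library between cells with Y-linked UMIs and cells with Xist (purple). In LPC-like cells the Cdkn1a ratio between libraries is −0.51 over all cells and 0.24 in the Xist cells.

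Cdkn2c was lower in the library labelled PADI4 cKO in ORS-like cells (−0.55, −1.08 to −0.03), cluster 1 (35.3 and 24.1 CPM, −0.55, −0.80 to −0.30), cluster 5 (35.3 and 17.7 CPM, −0.98, −1.40 to −0.60) and uHF-like cells (21.2 and 9.28 CPM, −1.18, −1.78 to −0.62). The ORS-like ratio rested on 73 and 55 UMIs, and was no longer counted with doublets left out or at a Leiden resolution of 2.0. With cells thinned to 2000 UMIs none of these Cdkn2c differences was counted. In ORS-like cells, cluster 1, cluster 5 and uHF-like cells the ratios of Mki67 were −0.90, −0.54, −1.30 and −1.65. Mki67 was lower in 12 of 12 groups tested, with a median of −0.55. In cells with Xist and no Y-linked UMIs it was lower in 9 of 11, with an interval below 0 in 6 and a median of −0.18. Within the PADI4 WT library, Mki67 was higher in cells with Y-linked UMIs in 8 of 11 groups. Top2a, another gene of cycling cells, was lower in 9 of 12 groups and higher in 3, with a median of −0.35. The share of cells called S or G2M was 59.8% and 44.2% in cluster 5, 27.5% and 24.6% in uHF-like cells, 72.8% and 72.1% in cluster 1 and 13.7% and 16.9% in ORS-like cells. Among cells with Xist and no Y-linked UMIs the Cdkn2c ratios were −0.37 in ORS-like cells, −0.22 in cluster 1, −0.93 in cluster 5 and −1.16 in uHF-like cells, each on fewer UMIs. Within cells called S or G2M the Cdkn2c ratios were −0.85 (−1.46 to −0.26) in ORS-like cells, −0.52 (−0.77 to −0.27) in cluster 1, −0.73 (−1.17 to −0.33) in cluster 5 and −1.17 (−1.84 to −0.56) in uHF-like cells, each past 0.5. The part of Mki67 in them was not tested. In GL-like cells, where nearly all cells were called S or G2M, Cdkn2c was 34.4 and 36.2 CPM.

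Of the remaining members, Cdkn1b was lower in 11 of 12 groups, with an interval below 0 in 7, and past 0.5 in cluster 5 (74.2 and 47.5 CPM, −0.64, −0.89 to −0.40). In cells with Xist and no Y-linked UMIs it was lower in 7 of 11 groups, with an interval below 0 in 1, and within the PADI4 WT library cells with Y-linked UMIs were higher than those with Xist in 10 of 11. Cdk6 was higher in 10 of 13 groups, with an interval above 0 in 7, and past 0.5 in SG-like cells (76.3 and 125 CPM, 0.71, 0.29 to 1.15). In cells with Xist and no Y-linked UMIs Cdk6 was higher in 9 of 11 groups, with an interval above 0 in 5, and lower in 2. Ccnd2 was past 0.5 in cluster 17 (595 and 313 CPM, −0.93, −1.08 to −0.77). With every cell thinned to 2000 UMIs, which gives each cell the same weight, the ratio was −0.34 for Ccnd2 in cluster 17, 0.05 for Cdk6 and −0.19 for Cdkn1a in SG-like cells, none of them past 0.5. Rb1 was higher with an interval above 0 in 4 of 12 groups, among them cluster 11 at 0.27 (0.15 to 0.38), and lower in 0. In cells with Xist and no Y-linked UMIs Rb1 was higher in 9 of 11 groups, with an interval above 0 in 4, and lower in 2. With 1 library per genotype, these directions cannot be told apart from differences between animals or preparations.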

How the data were processed

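Single-cell RNA sequencing (Chromium 3′ v3.1) was performed on 2 libraries, one per genotype. The authors deposited raw UMI counts per gene and droplet without a filter on droplets, made with Cell Ranger 7.1.0 per the file headers, and the submitters' processing notes name mm10 and Scanpy. Whether intronic reads were counted is not given in the sources used here. The tables held 143938990 and 143945294 UMIs over 1786872 and 1787390 barcodes. The correction for free RNA and the Harmony correction for cell cycle phase of the study were not run.

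From these counts, droplets were kept if they held 2000 to 60000 UMIs from 1000 to 8000 genes, with mitochondrial UMIs up to 20% and hemoglobin UMIs up to 1%, and 988 outside the 5th to 99th percentile of ribosomal share were removed. Genes detected in 5 or more cells were kept (21029). Phase was called with the Scanpy cell cycle score from 43 S and 54 G2M genes, none of them a member. Counts were scaled to 10000 per cell, phase scores were regressed out, and 1000 variable genes without the members and the phase genes were reduced to 50 components. Leiden clusters (15 neighbors, resolution 1.0) were named from marker lists, where a marker counted at 1.5-fold the other cells and 5 CPM and a name needed 3 markers, and 13 groups had at least 50 cells in each library. Scrublet doublets were left out only as an alternative, at a threshold of 0.224 in both libraries, chosen after its automatic values (0.648 and 0.224) were seen, which called 292 (3.62%) and 313 (4.23%) cells. Python 3.11.15, scanpy 1.11.5, leidenalg 0.10.2, numpy 2.4.6 and scipy 1.17.1 were used.

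UMIs were summed per library and group. Levels carry exact Poisson intervals, shares exact binomial intervals and log2 ratios exact conditional binomial intervals, at 95%, which cover counting error only. Ratios used a pseudocount of 0.5 UMIs. No test was made, since each genotype has 1 library and cells are not replicates. The steps were tested on simulated counts with known changes. Genes named are the members, a list of 30 other genes of the G1 to S step, and the 3 genes most like each member over groups. Those 3 were taken among genes with at least 100 UMIs and 10 CPM in 1 group. Also named are Padi4, Mki67 and Top2a, and leading or marker genes that identify a cluster or droplet. Some genes that meet this rule are not reported here. Promoter windows come from RefSeq on GRCm38.p6 and gene positions from GENCODE on GRCm38. The members, lists and rules were chosen with earlier results of these data known. Alternatives changed the depth minimum, doublets, clustering, free RNA, sex of the cells, scaling, the UMI minimum of a gene, cell depth and phase calls. Restricting to S or G2M or to G1 cells, taking 1 matrix cluster alone, and leaving out the muscle-gene droplet were added after the data were seen.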

Additional observations from a re-analysis of the deposited data

Results flagged for a closer look

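The ratio of Cdkn1a, the gene of p21, between the library labelled PADI4 cKO and the library labelled PADI4 WT went in opposite directions in different cell groups. It was 0.60 on the log2 scale in cluster 4 and −0.51 in LPC-like, −0.51 in ORS-like and −0.50 in SG-like cells, −0.62 in cluster 1 and −0.66 in cluster 5. The difference between these groups was not tested, since each genotype has 1 library. The cluster 4 ratio was 0.35 with doublets left out, 0.09 with no regression of phase scores and −0.20 in G1 cells, and 2 cells held 12 each of its 116 UMIs in the PADI4 cKO library. The ratios of ORS-like cells and cluster 1 were −0.34 and −0.34 with doublets left out.

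Cdkn1c, the gene of p57, was far higher in some groups that entered none of the comparisons than in the 13 compared groups, where it reached 26.4 CPM. It was at 746 CPM in 50 fibroblast-like PADI4 WT cells and at 239 CPM in 26 such PADI4 cKO cells. In cluster 16, which held 45 cells of the PADI4 WT library and 0 of the other, it was at 171 CPM. Cluster 16 was counted with the epithelial cells.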

How the results depend on the processing

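Each count was recomputed with 1 choice changed at a time. The 8 member differences from matrix to differentiated cells became 5 with only cells called S or G2M, an alternative added after the data were seen, and 7 to 10 under the others. The 3 from LPC-like to GL-like cells became 2 or 3. The 14 between libraries became 7 at a Leiden resolution of 0.5, 7 with no regression of phase scores, and 7 with genes of at least 500 UMIs. They became 4 in cells with Xist and no Y-linked UMIs, 1 with cells thinned to 2000 UMIs and 2 with only cells called G1, also added later. Under the others they were 10 to 14. Some of the counted differences were new. With thinned cells 0 of the 14 remained, and the 1 counted was Ccnd2, lower in cluster 5. Of the 4 in the Xist cells, 3 were among the 14, as were 5 of the 7 at a resolution of 0.5 and 6 of the 7 with no regression. Fewer groups, cells or UMIs pass the minimums in several of these alternatives, and the cause was not tested further. The highest group stayed the same in both libraries for 6 of 10 members at a Leiden resolution of 0.5 and for 8 to 10 under the others. Of the single ratios, 1 of 259 between phases, 6 of 170 between libraries and 0 of 90 and 0 of 236 along the path reversed. These were Ccnd2 in IRS-like cells of the PADI4 WT library, at −0.13 when Mki67 UMIs replaced the phase scores, and, between libraries, Cdkn1a in LPC-like cells at 0.24 in the Xist cells, Cdkn1c in GL-like cells at −0.040 with no regression of phase scores, and, in G1 cells, Cdkn1a at 0.41 in cluster 1 and −0.20 in cluster 4 and Cdkn2c at 0.016 in ORS-like and 0.91 in uHF-like cells. The cause was not tested. At a Leiden resolution of 0.5 no cells kept the name of cluster 11, so that step could not be given, and groups that fell under 50 cells in a library were left out. Low members such as Cdkn1c and Cdkn2c are limited by their UMI counts. No paired analysis was possible because each genotype has 1 library.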

Other observations

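Outside the epithelium, the 50 and 26 fibroblast-like cells held 976 and 357 CPM of Ccnd2, 201 and 188 CPM of Cdk6, 29.1 and 29.9 CPM of Cdkn1b and 14.5 and 36.3 CPM of Cdkn1a. Their Cdk6 intervals overlapped between the libraries (172 to 234 and 151 to 232 CPM) and those of Ccnd2 did not (909 to 1045 and 305 to 415 CPM). With so few cells in either library, these values rest on a small sample.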
